A study of Mus musculus with 8 samples.

Results

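The proteasome is the barrel-shaped protease that degrades ubiquitin-tagged proteins, and its subunit genes were examined here in leukaemic mouse spleen after knockdown of the histone demethylase gene Kdm1a. The members were all genes of the deposited expression table whose identifier maps, in the GENCODE M21 annotation, to a protein-coding symbol beginning with Psma, Psmb, Psmc, Psmd or Psme followed by a digit. These were 45 of 54018 identifiers. They comprise 8 genes of the alpha ring, 7 constitutive genes of the beta ring, 3 catalytic genes of the immunoproteasome, 1 of the thymoproteasome, 6 ATPases and 11 other subunits of the 19S cap, 3 chaperones of 19S assembly, and 5 genes of the activator families. The remaining gene, Psmc3ip, carries a matching symbol but encodes a partner of meiotic recombinases and not a proteasome subunit.

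Polyadenylated RNA was sequenced from mononuclear cells of the spleens of leukaemic C57BL/6 mice in 8 libraries. The genotype was Kdm1aKD;Eµ-TCL1A in 4 libraries (replicates 1, 2, 5 and 4, called knockdown) and Eµ-TCL1A in the other 4 (replicates 1 to 4, called control). Both groups thus carry the Eµ-TCL1A transgene, in which an immunoglobulin heavy chain enhancer directs the human TCL1A oncogene to B cells, and both were leukaemic. Per the series' text the knockdown is induced by doxycycline in leukaemic mice. Whether control mice received it, and in which cells the construct acts, is not stated in the labels, and neither are ages. Nothing in the labels says that every library is a separate animal, and p-values therefore reflect how much these libraries vary, which may be technical. The comparison asks how lowering Kdm1a alters transcript levels in leukaemic splenocytes.

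The catalytic core of the proteasome is a stack of alpha and beta rings, and the beta subunits Psmb5, Psmb6 and Psmb7 cut the substrate. The 19S cap recognises ubiquitin chains, and its ATPases unfold the substrate and feed it into the core. In lymphocytes and in cells exposed to interferon gamma, Psmb8, Psmb9 and Psmb10 are built in instead of Psmb5, Psmb6 and Psmb7, which alters the peptides offered to MHC class I. Nfe2l1, the transcription factor that restores proteasome genes when proteasome activity is short, acts through antioxidant response elements, whereas interferon regulatory factors act on the induced subunits.

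Promoter sequences are shown for 5 of the genes compared below, each with a match to a searched motif. They are a pair of constitutive catalytic genes, a pair of induced ones and the assembly chaperone gene Psmd9. The sequences run from 250 bases before to 50 bases after the RefSeq start (GRCm38.p6), 5′ to 3′ on the gene's strand. Capitals mark a match to a searched motif. In Psmb5 (chr14:54617946-54618245, minus strand) and Psmb6 (chr11:70525107-70525406, plus strand) this is an antioxidant response element at −47 and −9 from the start. In Psmb8 (chr17:34197945-34198244, plus strand) it is an interferon gamma activated site at −97, and in Psmb9 (chr17:34187281-34187580, minus strand) a CCAAT box read on the other strand at −8. In Psmd9 (chr5:123227940-123228239, plus strand) it is an interferon-stimulated response element at −159 and an antioxidant response element at −31.
Psmb5: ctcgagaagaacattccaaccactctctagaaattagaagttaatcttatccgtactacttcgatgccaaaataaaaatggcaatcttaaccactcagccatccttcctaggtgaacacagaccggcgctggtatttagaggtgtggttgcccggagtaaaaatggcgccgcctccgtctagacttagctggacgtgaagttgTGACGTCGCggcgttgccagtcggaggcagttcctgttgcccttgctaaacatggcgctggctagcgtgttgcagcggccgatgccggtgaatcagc
Psmb6: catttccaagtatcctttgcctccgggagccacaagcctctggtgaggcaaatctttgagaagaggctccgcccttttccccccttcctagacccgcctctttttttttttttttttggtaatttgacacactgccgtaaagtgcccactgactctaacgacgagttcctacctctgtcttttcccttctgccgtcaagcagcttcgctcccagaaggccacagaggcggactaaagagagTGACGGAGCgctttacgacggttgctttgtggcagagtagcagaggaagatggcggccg
Psmb8: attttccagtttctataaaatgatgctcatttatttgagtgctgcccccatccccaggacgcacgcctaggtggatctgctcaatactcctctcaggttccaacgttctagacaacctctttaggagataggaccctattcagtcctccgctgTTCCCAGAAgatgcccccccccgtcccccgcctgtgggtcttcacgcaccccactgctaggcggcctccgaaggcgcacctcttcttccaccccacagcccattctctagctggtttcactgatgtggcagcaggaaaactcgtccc
Psmb9: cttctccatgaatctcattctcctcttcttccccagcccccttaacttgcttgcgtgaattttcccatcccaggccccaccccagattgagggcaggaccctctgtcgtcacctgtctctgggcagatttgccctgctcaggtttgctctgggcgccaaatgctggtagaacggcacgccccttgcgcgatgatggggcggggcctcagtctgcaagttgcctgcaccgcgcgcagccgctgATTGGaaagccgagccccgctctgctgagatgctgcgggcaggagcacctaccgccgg
Psmd9: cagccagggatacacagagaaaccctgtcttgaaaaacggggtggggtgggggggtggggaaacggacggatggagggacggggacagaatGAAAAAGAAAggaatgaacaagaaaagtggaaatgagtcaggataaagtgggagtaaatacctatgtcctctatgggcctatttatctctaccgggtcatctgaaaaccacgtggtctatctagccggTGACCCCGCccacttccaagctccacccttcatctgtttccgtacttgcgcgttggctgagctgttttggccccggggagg

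The motifs were searched on both strands in the windows of the 38 members with an entry. A member counts once if any of its windows matches, and 3 members have 2 windows. The share over all windows counts each window, so the 2 percentages differ in unit. The antioxidant response element, TGACNNNGC, was present in 6 of 38 members (15.8%; Psmb5, Psmb6, Psmc6, Psmd9, Psmd12 and Psme4) and in 12.4% of all 32851 promoter windows. The interferon-stimulated response element, GAAANNGAAA, was present in 4 (10.5%; Psmb3, Psmd4, Psmd9 and Psme1) and in 3.44% of all windows. The interferon gamma activated site, TTCNNNGAA, was found in 2 (5.26%; Psmb8 and Psmd2), against 8.30% of all windows, and CCAAT in 15 (39.5%), against 37.4%. The matches in Psmb5, Psmb6, Psmb8 and Psmd9 do not overlap another searched motif. Psmb10 had no match in its window, which is not shown, and Psmb7 had no entry. The windows of Psmb9 and of the divergent peptide transporter gene Tap1 share 275 bases (chr17:34187306-34187580). A match is a run of letters, and binding was not measured.

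Values are FPKM, fragments scaled to transcript length and to library size. Differences are means of log2(FPKM + 1) in knockdown libraries minus those in control libraries, tested with limma and adjusted by the Benjamini-Hochberg method over the 12890 genes that reached 1 FPKM in 4 or more of the 8 libraries. Estimated depth was 37300000 to 43800000 fragments per library, which puts the value of a single fragment per kilobase at 0.0228 to 0.0268 FPKM. Kdm1a itself had 20.2, 21.0, 15.6 and 15.5 FPKM in knockdown replicates 1, 2, 5 and 4, against 24.2, 21.2, 24.1 and 31.1 FPKM in control replicates 1 to 4. The groups did not overlap, but the log2 difference of −0.45 did not pass the adjustment (adjusted p = 0.223). Knockdown replicate 4 and control replicate 4 stood apart from the other libraries. The B cell marker list had a mean log2 level of 6.94 in knockdown replicate 4 and 8.35 to 8.70 in the other 7 libraries, and the erythroid list had 9.61 in knockdown replicate 4 and 5.17 to 7.17 in the others. Xist, transcribed from the inactive X chromosome, ranged between 94.9 and 175 FPKM over the knockdown libraries, was 110 FPKM in the first control replicate and stayed at or under 0.128 FPKM in the remaining controls, so that sex and group are nearly the same split. Control replicate 4 had the lowest FPKM sum (572660, against 671732 to 762888 in the other 7). It also had the lowest mean log2 level of the T cell (4.13), NK cell (2.28) and monocyte and macrophage (2.71) marker lists. The same held for the dendritic cell (1.49) and megakaryocyte (1.01) lists. Its plasma cell level was the highest (6.81), and its B cell (8.64), erythroid (6.72) and neutrophil (3.99) levels lay within the range of the other libraries. In bulk RNA, fewer cells of a type and less RNA per cell cannot be told apart.

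Nearly all proteasome genes had higher averages in knockdown libraries, by a modest amount, and none passed the test. Of 43 members that reached the expression filter, 42 had a log2 difference above 0 (97.7%, against 63.7% of all genes tested), with a median of 0.44 against 0.13 for all genes. Median-of-ratios scaling moved the median of all genes to 0.00 and that of the members to 0.30, with 39 of 43 positive (90.7%, against 50.4% of all genes; Psmb8, Psmd11, Psme1 and Psme2b negative). Quantile normalization moved these medians to −0.03 and 0.29, with 38 of 43 positive and Psme3 negative as well. With limma, 0 of 43 passed an adjusted p of 0.05, where 1.74% of all genes did (1.63% higher and 0.109% lower). At an unadjusted p under 0.05 there were 10 members (23.3%), all higher, against 19.2% of all genes in either direction and 15.8% in that of higher values. Groups that did not overlap were found for 6 members, again all higher (14%, against 11.2% of all genes), and for 0 members lower (1.9% of all genes). The 6 were Psmc1, Psmc4, Psmd1, Psmd7, Psmd9 and Psmc3ip.

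The difference moved with the replicate 4 libraries. Knockdown replicate 4 held the highest value of 35 of 43 members (81.4%, against 30.7% of all genes), and control replicate 4 the lowest value of 35 of 43 (81.4%, against 37.5%). Without replicate 4 of both groups the members' median log2 difference was 0.10, the same as the 0.10 of all genes, with 37 of 43 positive (86.0%, against 65.6%), 5 at an unadjusted p under 0.05 (11.6%, against 15.2% of all genes) and 0 past the adjustment, which 124 of 12970 genes passed. The members together made up 0.506%, 0.592%, 0.654% and 0.736% of total FPKM in knockdown replicates 1, 2, 5 and 4, against 0.478%, 0.457%, 0.539% and 0.420% in control replicates 1 to 4. The share in knockdown replicate 1 lay below that of control replicate 3, so the groups overlapped. Set against control replicate 1 alone, the control with Xist at the knockdown level, the members' median was 0.36 and that of all genes 0.07, a comparison chosen after seeing the data and without a test. It still includes knockdown replicate 4. The members' median log2 level was 6.17, 6.44, 6.54 and 6.88 in knockdown replicates 1, 2, 5 and 4, against 6.13 in control replicate 1.

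**Figure D1:**
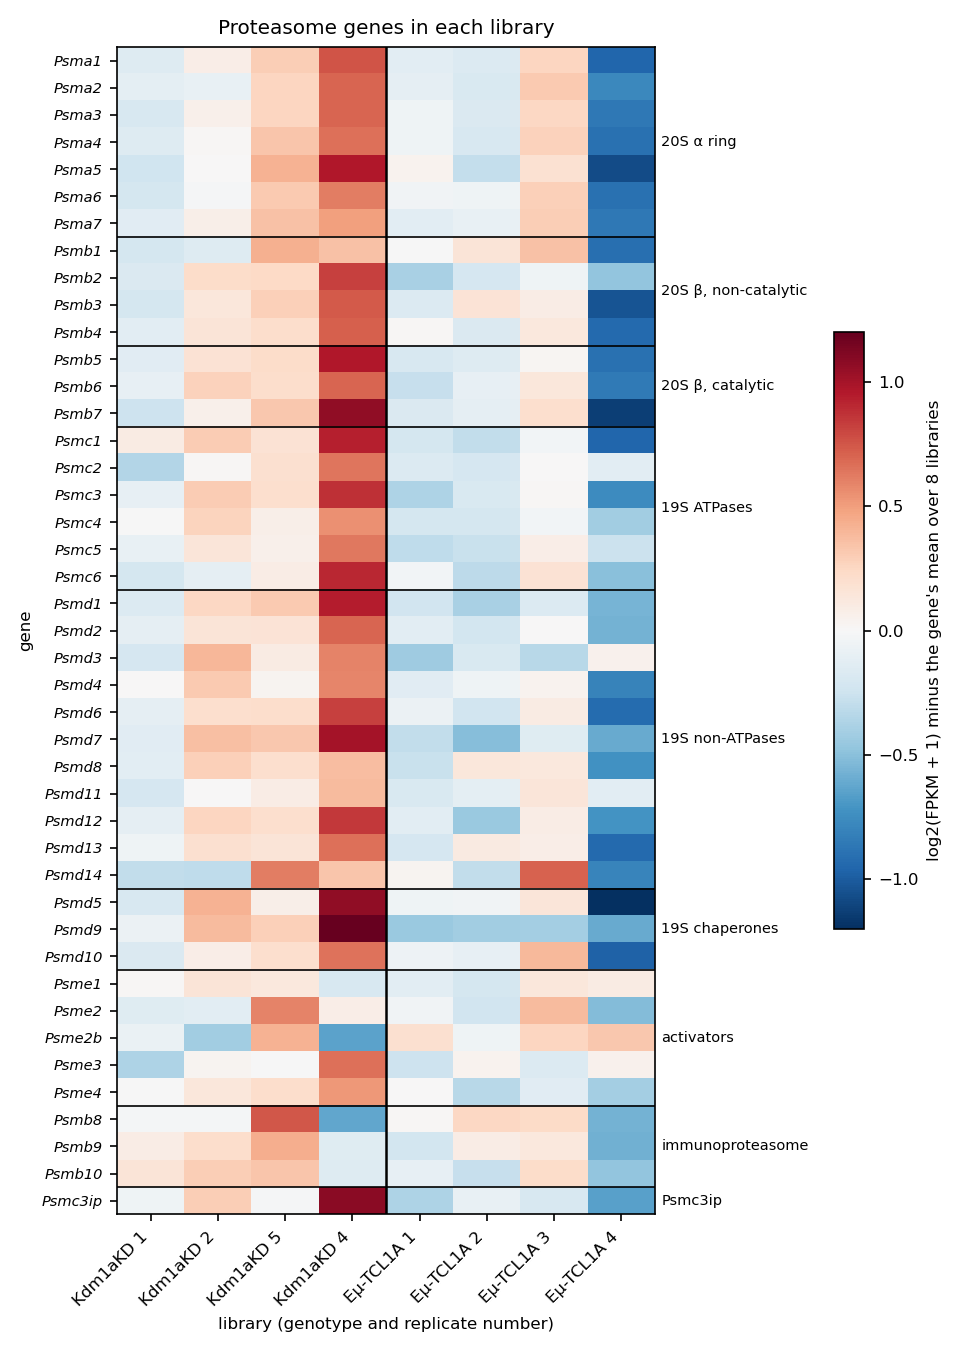
Level of each of the 43 expressed members in each library relative to the member's mean over all 8 libraries, on the log2(FPKM + 1) scale, with genes grouped by role and knockdown libraries left of control libraries. Knockdown replicate 4 is highest and control replicate 4 lowest for 35 of 43 members each. The immunoproteasome genes, Psmb1, Psme2 and Psme2b are highest in knockdown replicate 5, Psme1 in knockdown replicate 2 and Psmd14 in control replicate 3. Of the immunoproteasome genes, Psmb9 and Psmb10 are still lowest in control replicate 4.

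Other features of the libraries differed too, and only some of them followed the order of those values. The S phase marker list, 9 genes of DNA replication, had a mean log2 level of 5.74, 6.34, 6.07 and 7.25 in knockdown replicates 1, 2, 5 and 4, against 5.48, 5.77, 5.57 and 5.28 in control replicates 1 to 4, and its summed level was 506 to 1485 FPKM in knockdown and 378 to 530 FPKM in control libraries. The mitosis list had 4.78, 5.55, 4.97 and 6.64 in the knockdown libraries, against 4.38, 4.66, 4.52 and 4.52 in the controls (summed 250 to 887 FPKM in knockdown and 191 to 235 FPKM in control libraries). Both lists were highest in knockdown replicate 4, as were 35 of 43 members, Psmc3ip among them. Summed B cell markers were 1232 to 3231 FPKM in knockdown and 3475 to 4157 FPKM in control libraries, and summed erythroid markers 870 to 28630 FPKM in knockdown and 3045 to 8269 FPKM in control libraries. Summed monocyte and macrophage markers were 278 to 595 FPKM in knockdown and 86.0 to 277 FPKM in control libraries, and summed megakaryocyte markers 17.6 to 49.8 FPKM in knockdown and 5.70 to 12.9 FPKM in control libraries. Summed plasma cell markers were 440 to 933 FPKM in knockdown and 912 to 1592 FPKM in control libraries. The S phase and the monocyte and macrophage lists were highest in knockdown replicate 4 and lowest in control replicate 4, as most members were. The mitosis list was lowest in control replicate 1, the erythroid list in knockdown replicate 5, and the B cell and plasma cell lists in knockdown replicate 4. The megakaryocyte list was lowest in control replicate 4 but highest in knockdown replicate 1. The groups did not overlap in the summed B cell, mitosis, monocyte and megakaryocyte markers and overlapped in the other 3 lists. No marker of these 7 lists was at 0 in any library, and the part of these lists in the proteasome values was not tested.

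**Figure D2:**
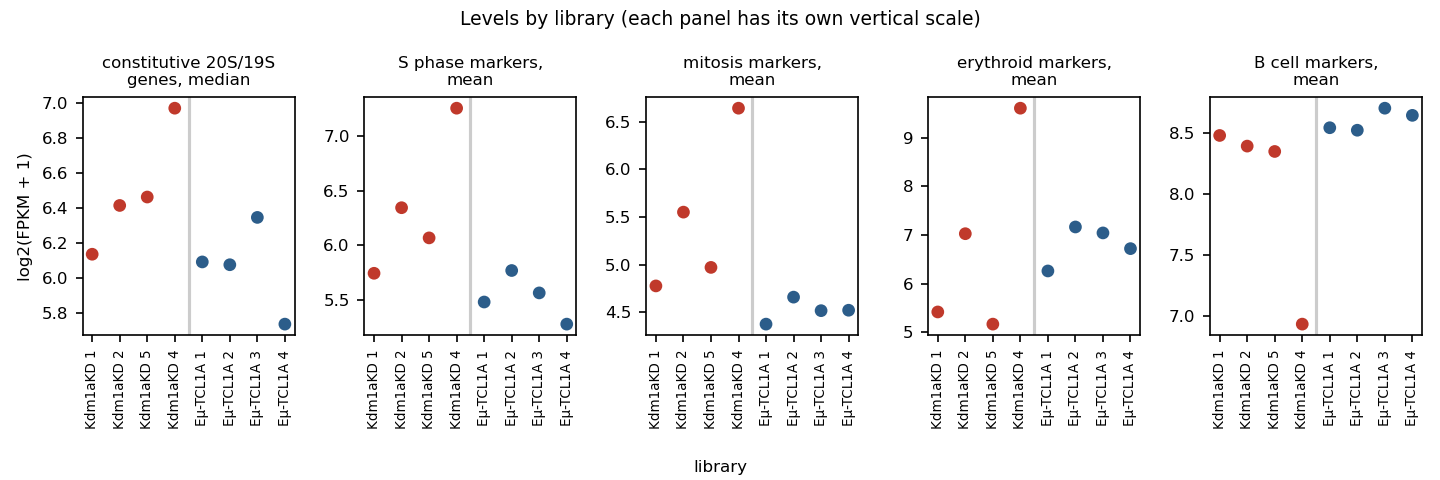
Log2(FPKM + 1) in each library, knockdown left of control, as the median of the constitutive 20S and 19S genes and the means of the S phase, mitosis, erythroid and B cell marker lists, each panel with its own vertical scale. Knockdown replicate 4 has the lowest B cell level (6.94) and the highest erythroid (9.61) and S phase (7.25) levels.

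The alpha ring, which forms the outer gate of the core particle, showed this library pattern throughout. All 7 genes that passed the filter had positive log2 differences, between 0.35 and 0.57 with a median of 0.42, and the smallest adjusted p was 0.369. All 7 were highest in knockdown replicate 4 and lowest in control replicate 4, and the median level of the ring overlapped between groups, with 97.3, 111, 136 and 176 FPKM in knockdown replicates 1, 2, 5 and 4, against 106, 96.8, 134 and 58.3 FPKM in control replicates 1 to 4. Psma5, with the largest difference of the ring, had 60.0, 71.3, 95 and 139 FPKM in the knockdown libraries, against 73.1, 58.1, 80.5 and 33.2 FPKM in the controls (log2 difference 0.57, adjusted p = 0.369). Its highest and lowest libraries were 4.20-fold apart. Psma1 followed with a log2 difference of 0.49, and Psma6 (0.35) and Psma2 had the smallest. Without replicate 4 of both groups the median of the ring was 0.05.

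In the beta ring, the non-catalytic genes Psmb1, Psmb2, Psmb3 and Psmb4 complete the ring around the active sites. Their log2 differences lay between 0.20 and 0.56 with a median of 0.48. Psmb2 had 91.2, 120, 121 and 182 FPKM in knockdown replicates 1, 2, 5 and 4, against 78.4, 89.2, 98.7 and 73.9 FPKM in control replicates 1 to 4 (log2 difference 0.56, adjusted p = 0.224). Knockdown replicate 1 lay within the control range and the other knockdown libraries above it. Psmb4 and Psmb3 had log2 differences of 0.48 and 0.47, and Psmb1 the smallest, 0.20 (adjusted p = 0.717).

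The constitutive catalytic genes had log2 differences between 0.54 and 0.61 with a median of 0.60, and in all 3 the groups overlapped. Psmb5, which encodes the subunit with chymotrypsin-like activity, had 71.7, 89.4, 92.3 and 154 FPKM in the knockdown libraries, against 69.0, 71.1, 80.3 and 41.9 FPKM in the controls. The means were 102 ± 36.2 and 65.6 ± 16.5 FPKM (SD, n = 4 each), and the log2 difference was 0.61 (95% interval −0.02 to 1.24, limma adjusted p = 0.271). Psmb6, the caspase-like subunit gene, had 115, 149, 142 and 200 FPKM in knockdown replicates 1, 2, 5 and 4, against 101, 115, 135 and 67.9 FPKM in control replicates 1 to 4 (log2 difference 0.54, adjusted p = 0.278). In both genes control replicate 3 was above the lowest knockdown library. Psmb7, the trypsin-like subunit gene, had 66.7, 82.9, 99.8 and 167 FPKM in the knockdown libraries, against 70.4, 73.3, 91.3 and 35.8 FPKM in the controls (log2 difference 0.60, adjusted p = 0.360). Psmb7 ranged 4.66-fold over the 8 libraries, and its span overlaps Nek6 on the opposite strand.

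The immunoproteasome genes were not highest in knockdown replicate 4. Psmb8, the induced counterpart of Psmb5, had 167, 168, 286 and 110 FPKM in knockdown replicates 1, 2, 5 and 4, against 172, 203, 200 and 115 FPKM in control replicates 1 to 4. Knockdown replicate 5 was the highest library and knockdown replicate 4 the lowest, with a log2 difference of 0.04 (95% interval −0.65 to 0.72, limma adjusted p = 0.957). The log2 difference was −0.11 after median-of-ratios scaling and −0.11 after quantile normalization. Psmb9, the counterpart of Psmb6, had 117, 128, 150 and 99.8 FPKM in the knockdown libraries, against 94.8, 117, 121 and 73.8 FPKM in the controls (log2 difference 0.29, adjusted p = 0.465). Psmb10, the counterpart of Psmb7, had 112, 124, 127 and 90.5 FPKM in the knockdown libraries, against 94.1, 83.0, 117 and 72.2 FPKM in the controls (log2 difference 0.31, adjusted p = 0.403). All 3 genes peaked in knockdown replicate 5, as Psmb1, Psme2 and Psme2b did, and in each the groups overlapped. Psmb9 and Psmb10 were lowest in control replicate 4, as most members were. Without replicate 4 of both groups the median log2 difference of these 3 was 0.24, and that of the 3 constitutive catalytic genes 0.19. Psmb9 overlaps Tap1, and Psmb8 and Psmb10 overlap predicted genes, on opposite strands. Whether counting used strand is not stated, so reads of such partners may not be told apart.

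**Figure D3:**
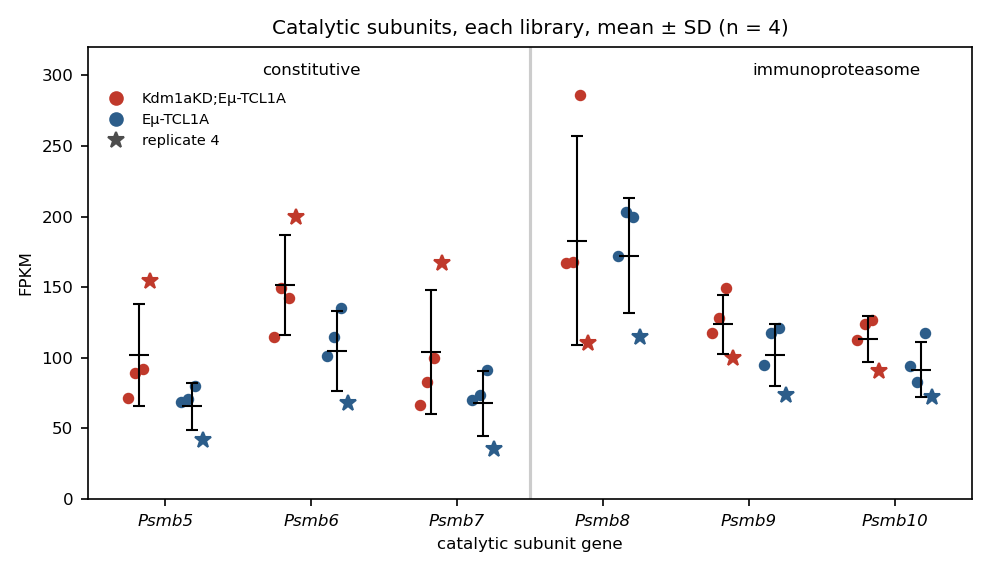
FPKM of the constitutive catalytic genes Psmb5, Psmb6 and Psmb7 and their induced counterparts Psmb8, Psmb9 and Psmb10 in each library (points), with the group mean and SD (n = 4 each), knockdown left of control and replicate 4 drawn as a star. Knockdown replicate 4 is the highest library for the constitutive genes (154, 200 and 167 FPKM) and among the low ones for the induced genes (110, 99.8 and 90.5 FPKM).

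Each induced gene was then set against the constitutive gene it replaces, within each library, as a difference of log2(FPKM + 1). Psmb8 minus Psmb5 was 1.21, 0.90, 1.62 and −0.48 in knockdown replicates 1, 2, 5 and 4, against 1.30, 1.50, 1.30 and 1.43 in control replicates 1 to 4. The mean was 0.81 ± 0.91 in knockdown and 1.38 ± 0.10 in control libraries (SD, n = 4 each), and p was 0.286 (exact permutation of the 8 libraries over 70 assignments, two-sided). Knockdown replicate 4 was the single library in which Psmb5 exceeded Psmb8. Psmb9 minus Psmb6 was 0.04, −0.22, 0.07 and −1.0 in the knockdown libraries, against −0.10, 0.03, −0.16 and 0.12 in the controls (exact permutation p = 0.457). Psmb10 minus Psmb7 was 0.74, 0.57, 0.34 and −0.88 in the knockdown libraries, against 0.41, 0.18, 0.36 and 0.99 in the controls (exact permutation p = 0.600). Adjusted over the 3 pairs each p was 0.600, and the smallest p the design allows is 0.0286. Taken over the 6 genes, the induced 3 made up 61.1%, 56.6%, 62.7% and 36.6% of summed FPKM in knockdown replicates 1, 2, 5 and 4, against 60.0%, 60.9%, 58.8% and 64.2% in control replicates 1 to 4. Knockdown replicate 4 lay far below the other 7 libraries, which were between 56.6% and 64.2%. The knockdown mean was 54.2 ± 12.1% and the control mean 60.9 ± 2.30% (SD, n = 4 each). The low share went with the lowest B cell marker level of the 8 libraries, and whether the 2 are linked was not tested.

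**Figure D4:**
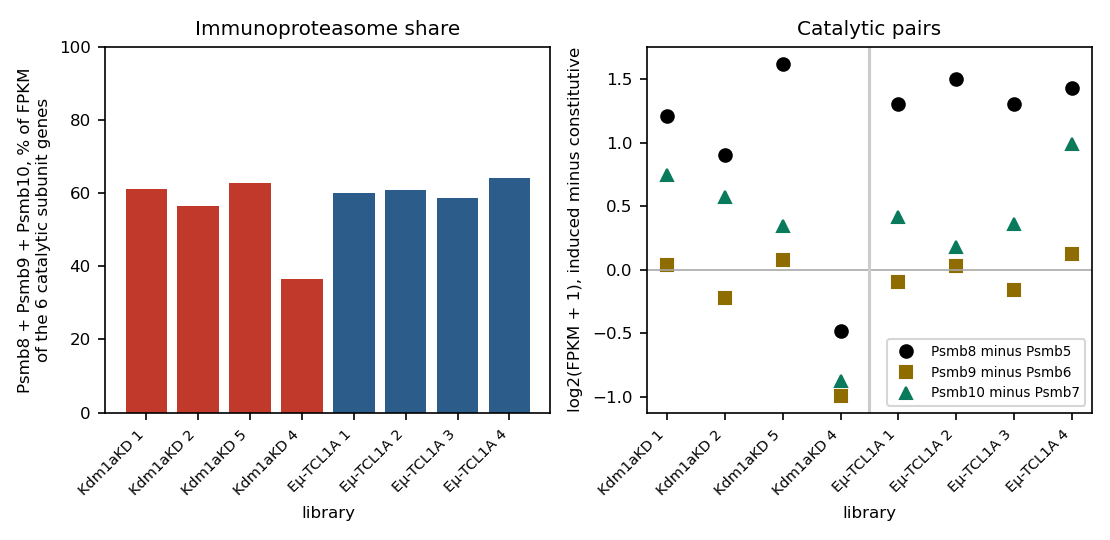
Left, the share of Psmb8, Psmb9 and Psmb10 in the summed FPKM of the 6 catalytic genes (percent, 1 bar per library, knockdown left of control), and right, the log2(FPKM + 1) of each induced gene minus that of its constitutive counterpart per library. Knockdown replicate 4 is at 36.6%, with the other 7 libraries between 56.6% and 64.2%, and has the lowest value of all 3 pairs (−0.48, −1.0 and −0.88).

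Of the 19S ATPases, which unfold substrates, all 6 had positive log2 differences, from 0.25 to 0.75 with a median of 0.41. Psmc1 had 75.7, 87.4, 79.7 and 136 FPKM in knockdown replicates 1, 2, 5 and 4, against 61.0, 57.4, 69.3 and 36.1 FPKM in control replicates 1 to 4. Every knockdown library was above every control, and the log2 difference was 0.75 (limma adjusted p = 0.171). Psmc3 had 84.6, 112, 105 and 167 FPKM in the knockdown libraries, against 69.9, 79.6, 91.6 and 53.1 FPKM in the controls (log2 difference 0.65, adjusted p = 0.205). Psmc4 had 71.2, 85.8, 74.8 and 104 FPKM in the knockdown libraries, against 61.6, 61.3, 69.5 and 53.0 FPKM in the controls (log2 difference 0.44, adjusted p = 0.224). Psmc4 did not overlap between groups, whereas Psmc3 did. The smallest differences were those of Psmc2 (0.25) and Psmc6 (0.34). Without replicate 4 of both groups the ATPase median was 0.23, and that of Psmc1 alone 0.37 (adjusted p = 0.247).

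The 11 non-ATPase subunits of the cap hold the ubiquitin receptors, the scaffold and the deubiquitinase. All had positive log2 differences, from 0.14 to 0.77 with a median of 0.47. An unadjusted limma p under 0.05 was found for 3 of the 11, and for 19.2% of all genes tested (15.8% higher). Psmd7, which encodes the inactive partner of the deubiquitinase, had 52.0, 73.7, 72.1 and 115 FPKM in knockdown replicates 1, 2, 5 and 4, against 46.6, 40.0, 51.8 and 37.3 FPKM in control replicates 1 to 4 (log2 difference 0.77, adjusted p = 0.145). Psmd1, the large scaffold subunit gene, had 31.8, 42.8, 44.6 and 69.6 FPKM in the knockdown libraries, against 30.3, 27.1, 31.7 and 24 FPKM in the controls (log2 difference 0.67, adjusted p = 0.176). Neither gene overlapped between groups, although the margin between knockdown replicate 1 and control replicate 3 was under 1 FPKM in both. Psmd14, the deubiquitinase gene itself, had 67.5, 67.2, 128 and 105 FPKM in the knockdown libraries, against 85.3, 67.6, 137 and 47.5 FPKM in the controls. The log2 difference of Psmd14 was 0.17 (adjusted p = 0.802), its highest library was a control, and without replicate 4 of both groups it was −0.15. Psmd11, a scaffold subunit gene, had the smallest difference of the 11, 0.14 (−0.01 after either rescaling), and was among the steadiest members, with a 1.50-fold range over the 8 libraries.

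The assembly chaperones Psmd5, Psmd9 and Psmd10 help to build the base of the cap and are absent from the finished particle. Psmd9 had the largest difference of all 43 members. It had 16.2, 22.4, 21.0 and 42.8 FPKM in knockdown replicates 1, 2, 5 and 4, against 12.3, 12.5, 12.6 and 10.8 FPKM in control replicates 1 to 4. All knockdown libraries were above the controls, which differed little among themselves (25.6 ± 11.8 and 12 ± 0.821 FPKM, SD, n = 4 each). Its log2 difference of 0.94 (95% interval 0.34 to 1.54) had an unadjusted limma p of 0.00607 and an adjusted p of 0.123. Without replicate 4 of both groups it was 0.62 (adjusted p = 0.130), and with array weights, which down-weight variable libraries, 0.69 (adjusted p = 0.0485), the single member that passed under any setting. The run with array weights called 1 of 43 members and 761 of 12890 genes. In GENCODE M21 (chromosome 5, 123169413 to 123250131) Psmd9 spans Hpd and a pair of predicted genes on the opposite strand, so its value is less certain. Psmd5 had 23.0, 35.5, 27.7 and 56.4 FPKM in the knockdown libraries, against 25.4, 25.6, 29.3 and 9.32 FPKM in the controls (log2 difference 0.68, adjusted p = 0.353). The 6.05-fold range of Psmd5 was the widest of the 43 members, and without replicate 4 of both groups its difference was 0.08. Psmd10, which lies on the X chromosome, had a log2 difference of 0.37 (adjusted p = 0.502).

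**Figure D5:**
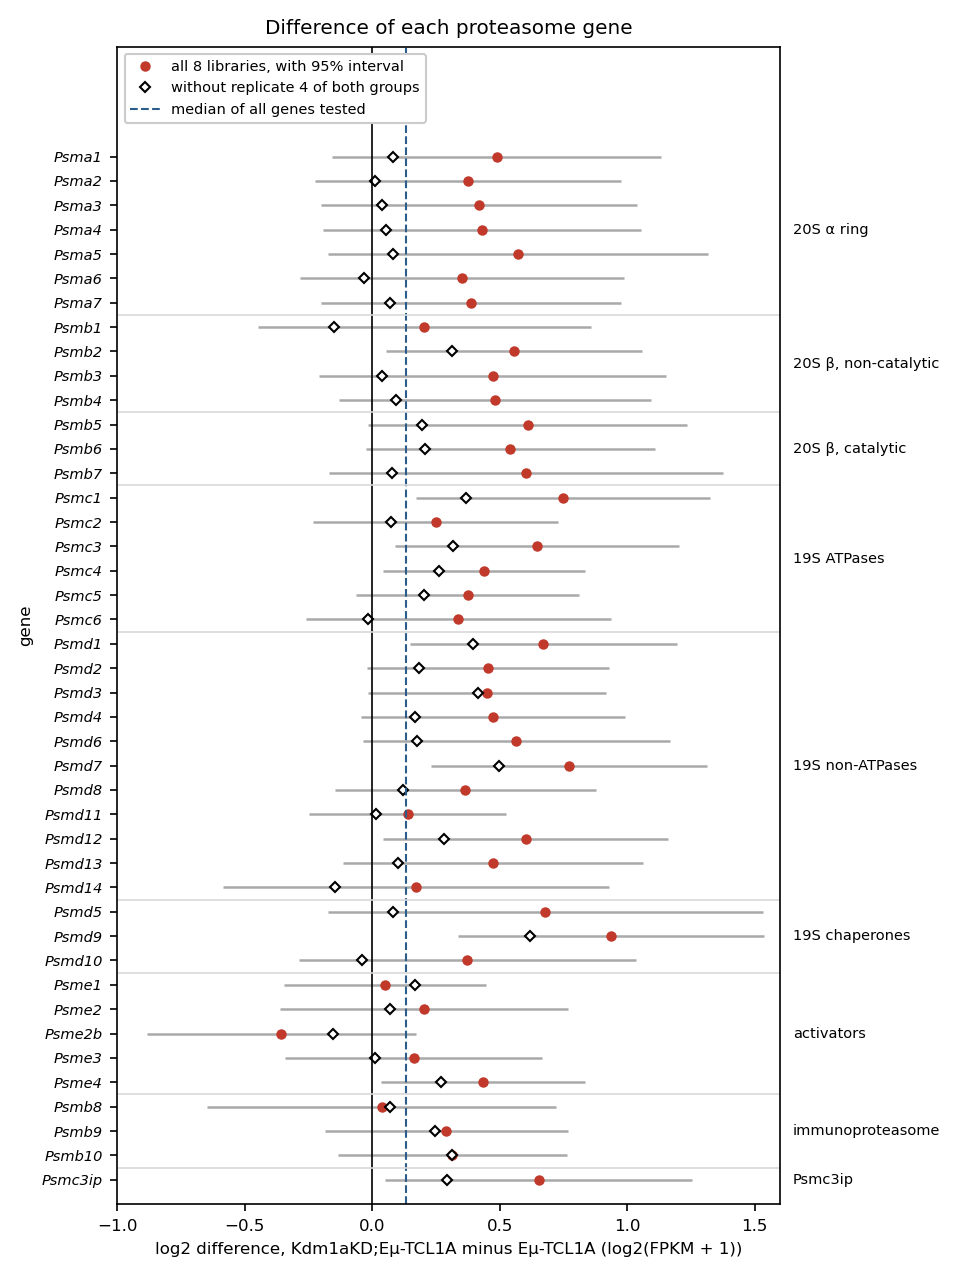
Log2 difference, knockdown minus control, of each of the 43 expressed members with its 95% interval (filled points) and without replicate 4 of both groups (diamonds), grouped by role, with vertical lines at 0 and at the median of all 12890 genes (0.13). Of the 43 estimates 42 are above 0 (39 after median-of-ratios scaling and 38 after quantile normalization), and Psmd9 has the largest (0.94).

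Activators open the gate of the core in place of the 19S cap. Psme1 and Psme2, the interferon-inducible subunits of PA28, were the 2 members with the highest mean FPKM in both groups. Psme1 had 254, 278, 274 and 219 FPKM in knockdown replicates 1, 2, 5 and 4, against 229, 217, 275 and 269 FPKM in control replicates 1 to 4 (log2 difference 0.05, adjusted p = 0.896, and −0.10 after median-of-ratios scaling). It was the steadiest of the 43 members, with a 1.28-fold range. Psme2 had 191, 194, 322 and 225 FPKM in the knockdown libraries, against 206, 181, 277 and 148 FPKM in the controls (log2 difference 0.20, adjusted p = 0.677). The nuclear activator gene Psme3 had a log2 difference of 0.16 (adjusted p = 0.709), or −0.02 after quantile normalization. Psme4, which encodes PA200, an activator known from histone degradation, had 14.5, 16.1, 17.1 and 21.4 FPKM in the knockdown libraries, against 14.6, 11.4, 13.2 and 10.7 FPKM in the controls (log2 difference 0.43, adjusted p = 0.231). Control replicate 1 reached the level of knockdown replicate 1. Psme2b, a near copy of Psme2, was the single member with a negative log2 difference, −0.36 (adjusted p = 0.418), and how reads were split between the copies is not known.

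Psma8 and Psmb11 did not pass the expression filter. Psma8, the alpha subunit of the testis proteasome, had 0.966, 0.522, 1.14 and 2.24 FPKM in knockdown replicates 1, 2, 5 and 4, against 0.265, 0.0491, 0.177 and 0.0804 FPKM in control replicates 1 to 4. All knockdown libraries were above the controls, at levels far below those of its paralogue Psma7 (129 to 200 FPKM in knockdown and 78.1 to 175 FPKM in control libraries). In a fit without the filter its log2 difference was 0.91 (adjusted p = 0.186), and how reads that match both paralogues were assigned is not known. Psmb11, the thymus-specific catalytic subunit gene, had 0.0116 to 0.0532 FPKM in knockdown and 0 to 0.0245 FPKM in control libraries, far below the filter. The number of fragments behind these values was not estimated. Psmc3ip, the gene that is no subunit, had 10.4, 13.5, 10.7 and 24.1 FPKM in the knockdown libraries, against 8.15, 10.1, 9.36 and 6.56 FPKM in the controls (log2 difference 0.65, adjusted p = 0.232).

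Further genes of the pathway gave 0 calls in the same limma fit, which called 1.74% of all genes. Among 13 proteasome genes with other symbols, 12 had a positive log2 difference (63.7% of all genes did), with a median of 0.37. An unadjusted limma p under 0.05 was found for 4 of the 13, and for 19.2% of all genes. Usp14, the deubiquitinase that docks on the 19S cap, had 31.7, 48.8, 38.3 and 83.4 FPKM in knockdown replicates 1, 2, 5 and 4, against 25.6, 21.2, 25.4 and 22.7 FPKM in control replicates 1 to 4 (log2 difference 0.97, adjusted p = 0.122). Psmg2, a chaperone of alpha ring assembly, had 30.0, 43.7, 34.5 and 75.2 FPKM in the knockdown libraries, against 25.9, 23.8, 29.6 and 19.1 FPKM in the controls (log2 difference 0.80, adjusted p = 0.179). In both genes, named for their small p values, all knockdown libraries were above the controls, as in 11.2% of all genes. Of 13 ubiquitin and shuttling genes, 10 were positive (against 63.7% of all genes), with a median of 0.19. The smallest p values there were those of Ufd1, a cofactor of the segregase Vcp (log2 difference 0.26, adjusted p = 0.363), and Rad23b, a shuttle to the proteasome (0.36, adjusted p = 0.416).

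Among regulators of proteasome genes, Stat2 and Irf9, which act in the type I interferon response, had the smallest p values. Stat2 had 27.2, 33.1, 21.4 and 20.2 FPKM in knockdown replicates 1, 2, 5 and 4, against 16.4, 14.6, 14 and 19.2 FPKM in control replicates 1 to 4 (log2 difference 0.62, adjusted p = 0.151). Irf9 had 37.9, 52.9, 40.7 and 47.2 FPKM in the knockdown libraries, against 37.2, 30.6, 31.0 and 25 FPKM in the controls (log2 difference 0.52, adjusted p = 0.174). In both, all knockdown libraries were above the controls, as in 11.2% of all genes. Neither was highest in knockdown replicate 4, which held the highest value of 32 of the 34 expressed constitutive 20S and 19S genes. Nfe2l1 had a log2 difference of −0.21 (limma adjusted p = 0.587), overlapped between groups and was lowest in knockdown replicate 4. Of 11 genes that supply MHC class I with peptide, 6 were positive (against 63.7% of all genes), with a median of 0.04. Tap1, the neighbour of Psmb9, had 118, 137, 147 and 78.0 FPKM in the knockdown libraries, against 94.3, 84.4, 89.8 and 73.7 FPKM in the controls (log2 difference 0.45, adjusted p = 0.295). Like Psmb9 it was highest in knockdown replicate 5 and lowest in control replicate 4. Tapbp, which tethers the transporter to MHC class I, had a log2 difference of 0.28.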

How the data were processed

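RNA-seq of 8 libraries of splenic mononuclear cells was analysed, 4 knockdown and 4 control, grouped by the labels' titles. The values are FPKM as the authors deposited them in 1 table. CASAVA and Cufflinks are named, without versions, in the submitters' processing notes. For the aligner, build, annotation and strand setting, no entry is given in the sources used here. A library's FPKM values move with its most abundant transcripts. Depth was inferred from whole multiples among low values of transcripts of at least 1500 bases, of which 87.1% to 98.5% lay within 5% of a whole multiple. The table holds no counts, so no count model was run.

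Identifiers were matched to GENCODE M21 (GRCm38), which named 53865 of 54018. Values were compared as log2(FPKM + 1) with limma 3.58.1 (mean-variance trend) in R 4.3.3, two-sided, with Benjamini-Hochberg adjustment over 12890 genes at a threshold of 0.05. For catalytic pairs the exact permutation test was two-sided. Other steps ran in Python 3.11.15 with matplotlib 3.10.9, numpy 2.4.6 and pandas 2.3.3. On simulated data for knockdown against control (12890 genes, 200 of them changed in each run) the fit recovered 34.0% of genes changed 2-fold and 93.5% of those changed 4-fold, with 3 and 11 false calls among 12690 unchanged genes. Noise was drawn independently for each gene and library, and changes were planted only in genes above a set control level. Shifts shared by many genes of a library were not simulated, so these rates do not cover them.

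Members, roles, lists and tests were chosen with earlier results of these data known. Named were Kdm1a, the 6 catalytic genes, Psme1 to Psme4, members past the threshold or under the filter, the 2 largest and 2 smallest differences of each remaining role group, and the 2 smallest p values of each other list. Psmc4 and Nfe2l1 were added after their values were seen. Promoters were RefSeq windows of GRCm38.p6, found for 38 of 45 members. Irf8 and Paaf1 were not analysed here, and the count over the list of regulators is not reported here. Alternatives changed the pseudocount (0.1 or 5), filter, scaling, test, threshold, B cell covariate, replicate block and the libraries included.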

Additional observations from a re-analysis of the deposited data

Results flagged for a closer look

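Of 186 groups of 4 libraries examined, over all members, the other genes named except Nfe2l1, the marker lists, the role medians and the library sums and shares, 5 had a highest or lowest library whose distance from the others passed Dixon's 95% value, which chance alone passes in about 1 in 20 groups. Among the members this was Psmc5, an ATPase gene of the 19S cap, with 83.0 FPKM in control replicate 3 and 63.8, 65.3 and 65.8 FPKM in the other control libraries. Knockdown replicate 4 was far from the other knockdown libraries in the B cell marker list, with a mean log2 level of 6.94 and a sum of 1232 FPKM, against sums of 3056 to 3231 FPKM in those libraries. Its summed erythroid markers were 28630 FPKM, against 870 to 2342 FPKM in the other knockdown libraries. Xist had 110 FPKM in control replicate 1 and at most 0.128 FPKM in the other control libraries.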

How the results depend on the processing

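The number of members past the adjusted threshold was 0 in every alternative run except array weights, where it was 1 (Psmd9), with 761 of 12890 genes passing. The members' median log2 difference was 0.10 without replicate 4 of both groups, and between 0.25 (without control replicate 4) and 0.57 (without control replicate 3) when 1 library was left out. It was 0.23 with the B cell covariate (0.14 for all genes) and 0.19 with array weights (0.13 for all genes), so that the members exceeded all genes by 0.09 and 0.07, against 0.31 in the fit reported. Against control replicate 1 alone, chosen after seeing the data and with knockdown replicate 4 included, it was 0.36 (0.07 for all genes). Psmb8 minus Psmb5 differed between groups by −0.57, and by −0.84 to −0.14 with 1 library left out. The first was without knockdown replicate 5 (exact permutation p = 0.0286) and the second without knockdown replicate 4. This p is the smallest such a run allows and was not adjusted over the 3 pairs or over the runs. The other runs with 1 library left out had exact permutation p from 0.171 to 0.571 for this pair. Psmb9 minus Psmb6 was −0.25 and 0.037 without replicate 4 of both groups, with −0.37 to −0.011 when 1 library was left out. Psmb10 minus Psmb7 was −0.29 and 0.24 without replicate 4 of both groups, with −0.47 to 0.067 when 1 library was left out, the last without knockdown replicate 4. The cause of these shifts was not tested.

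Deviations of same-numbered libraries from their group means were weakly correlated (0.16, 0.05 and −0.12 for replicates 1, 2 and 4). Differently numbered libraries were not compared in this way, so these values cannot decide whether the numbers pair libraries. The labels do not state a pairing. With the replicate block, 0 members and 0 of 12890 genes passed, the members' median was 0.55, and the pair differences were −0.87, −0.41 and −0.38.

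Small log2 differences changed sign. With array weights Psmb8 was −0.057, Psme2 −0.016, Psmd14 −0.22, Psma6 −0.0043 and Psmb1 −0.16. After median-of-ratios scaling Psmb8 was −0.11, Psme1 −0.095 and Psmd11 −0.0053, and after quantile normalization Psmb8 was −0.11, Psme1 −0.025, Psme3 −0.020 and Psmd11 −0.0065. With the B cell covariate Psme3 was −0.14, Psmc2 −0.019, Psmc6 −0.028 and Psmd11 −0.014, and with the block Psmb8 was −0.12. Without replicate 4 of both groups Psmc6 was −0.018, Psmd10 −0.042, Psmd14 −0.15, Psma6 −0.034 and Psmb1 −0.15. With 1 library left out the range was −0.21 to 0.25 for Psmb8, −0.010 to 0.12 for Psme1, −0.032 to 0.31 for Psme3, −0.064 to 0.44 for Psmd14 (−0.064 without control replicate 4, −0.0032 without knockdown replicate 5) and −0.065 to 0.35 for Psmb1. Array weights, under which 761 of 12890 genes passed, brought Stat2 (0.85, adjusted p = 0.0146) and Usp14 (0.77, adjusted p = 0.0479) past the threshold. The count of all genes called was 224, and 6 without knockdown replicate 2, 7 without control replicate 4 and 24 with a pseudocount of 5. On simulated data with independent noise, 34.0% of 2-fold changes were recovered. Smaller changes, and shifts shared by many genes of a library, were not simulated. The log2 differences of the 43 members lay between −0.36 and 0.94 (Psmd9 had 1.02 with the replicate block and 1.12 without knockdown replicate 1).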
